A study of Mus musculus with 30 samples.

Results

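Genes that carry the insulin signal to the glucose transporter Glut4, or whose products are held in check by it, were followed, 10 in number: Foxo1, Foxo3, Foxo4, Insr, Irs1, Irs2, Pik3r1, Akt2, Slc2a4 and Tbc1d1. They were taken by gene symbol from the deposited tables, which list 56951 symbols, and all 10 members were among the 12030 genes with enough reads to be tested. The tissue was the gastrocnemius muscle, with the plantaris attached, of wild-type male C57BL/6J mice, 1 library per mouse, at about 78 weeks of age. All mice had a running wheel and were first kept for 2 weeks in a light-dark cycle of 12 h light and 12 h dark and for 2 weeks in constant darkness. The LD group (n = 14) then stayed in the same light-dark cycle for 64 weeks, and the ADV group (n = 16) lived for 64 weeks under a cycle whose phase was advanced by 8 h once every 4 days. Mice were killed at various times of the light phase, and these times were not used here.

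Insulin binds its receptor (Insr), which phosphorylates the insulin receptor substrates (Irs1, Irs2). These recruit PI 3-kinase, whose regulatory subunit p85 is encoded by Pik3r1, and the kinase Akt2 is switched on. Akt2 phosphorylates the Rab GTPase-activating protein Tbc1d1, which releases vesicles with Glut4 (Slc2a4) to the cell surface, and it also phosphorylates FoxO transcription factors, which then leave the nucleus. In fasted or unloaded muscle, FoxO factors in the nucleus drive genes of protein breakdown, among them Trim63, which encodes the ubiquitin ligase MuRF1. Most of this control acts on proteins, by phosphorylation and location, and RNA levels do not show it.

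Depth was similar in all libraries, with exon counts between 18875468.5 and 28512674 read pairs. The myofiber markers were abundant in both groups, led by the fast troponin Tnnt3 at 19628 FPKM ± 1771 (SD, n = 14) in LD and 19605 FPKM ± 2213 (SD, n = 16) in ADV, and 0 of 8 myofiber markers passed the edgeR test between groups (2 had an unadjusted p under 0.05). One library stood apart: in ADV mouse 34 the 1285 genes with transcripts over 6000 bases read lower than the 2354 genes under 1500 bases by 0.80 on the log2 scale, as medians of the deviation from the other libraries. The difference was -0.35 in ADV mouse 25 and lay between -0.16 and 0.16 in the other 28 libraries. Transcripts over 6000 bases belong to 6 of the 10 members, Foxo1, Foxo3, Insr, Irs1, Irs2 and Pik3r1. Values without 1 or both of ADV mice 25 and 34 are given for Insr, Irs2, Akt2 and Slc2a4. They are also given for the list genes in the paragraphs on the lists. For Irs1 and Irs2 the fit without both mice is given only within a range of alternatives. In whole muscle, fewer cells of a type and less RNA per cell cannot be told apart.

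Start regions were looked up for the members, Trim63 and Dbp, and sequence is shown for the 3 genes with a match to a motif: Trim63, Irs1 and Irs2. In the RefSeq promoter windows (build GRCm38.p6, from 250 bases before to 50 bases after the start, 32851 windows), both strands were searched for the FoxO core motif GTAAACA, whose reverse complement is TGTTTAC, and for the clock E-box CACGTG, which reads the same on both strands. The motifs do not overlap each other, and GTAAACA was found in 3.65% and CACGTG in 7.15% of all windows. Of the members, 7 had a window, with 12 windows among them. None of the 12 (0 windows) held GTAAACA, and 2 held CACGTG, at Irs1 and Irs2. The motif is in capitals, and 25 bases on each side are shown, read 5′ to 3′ along the gene's strand. Trim63 (chr4:134314901-134314957, plus strand) has the FoxO motif on the other strand, 194 bases before its start, Irs1 (chr1:82291524-82291579, minus strand) has the E-box 115 bases before its start, and Irs2 (chr8:11008943-11008998, minus strand) 44 bases before. A match of letters is a description of the sequence and not evidence of binding.
Trim63: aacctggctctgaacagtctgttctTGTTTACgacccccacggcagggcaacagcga
Irs1: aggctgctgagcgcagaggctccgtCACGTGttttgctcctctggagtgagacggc
Irs2: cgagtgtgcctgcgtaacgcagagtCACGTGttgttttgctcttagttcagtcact

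The 10 genes differed widely in level. On the FPKM scale, which divides by transcript length, Slc2a4 was the most abundant with a mean of 189 FPKM over the 30 mice, followed by Akt2 at 59.9 FPKM, Foxo4 at 47.4 FPKM, Tbc1d1 at 15.9 FPKM and Insr at 10.7 FPKM. Irs2 (6.80 FPKM), Pik3r1 (5.56 FPKM), Foxo3 (5.26 FPKM), Irs1 (4.63 FPKM) and Foxo1 (3.99 FPKM) were low. Slc2a4 lay above Akt2, Akt2 above Foxo4 and Foxo4 above Tbc1d1 in 30 of 30 mice. Below Insr the order was not fixed: each of the last 5 genes exceeded the next one in only 14 to 19 of 30 mice. Foxo4 was thus the most abundant of the 3 FoxO RNAs in this muscle, and Foxo1, the most variable one, the least.

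The first question was whether chronic jet lag changed the level of these genes. One member, Tbc1d1, was higher in ADV mice, by 1.44-fold (log2 fold change 0.53 ± 0.15 (SE); edgeR quasi-likelihood test, FDR = 0.0207). The other 9 members did not pass the test, and the end point of the chain, Slc2a4, and the kinase Akt2 had fold changes near 1. The count of 1 of 10 members can be read against the background: 10.8% of all genes tested passed an FDR of 0.05 (5.61% higher and 5.2% lower in ADV, 675 and 626 genes). With a fold change over 1.3 as well, the limit that the study's methods set and that Tbc1d1 also passed, it was 2.09% (1.45% higher in ADV). At an unadjusted p under 0.05 there were 3 members (Tbc1d1, Irs2 and Irs1) among 3624 genes.

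**Figure D1:**
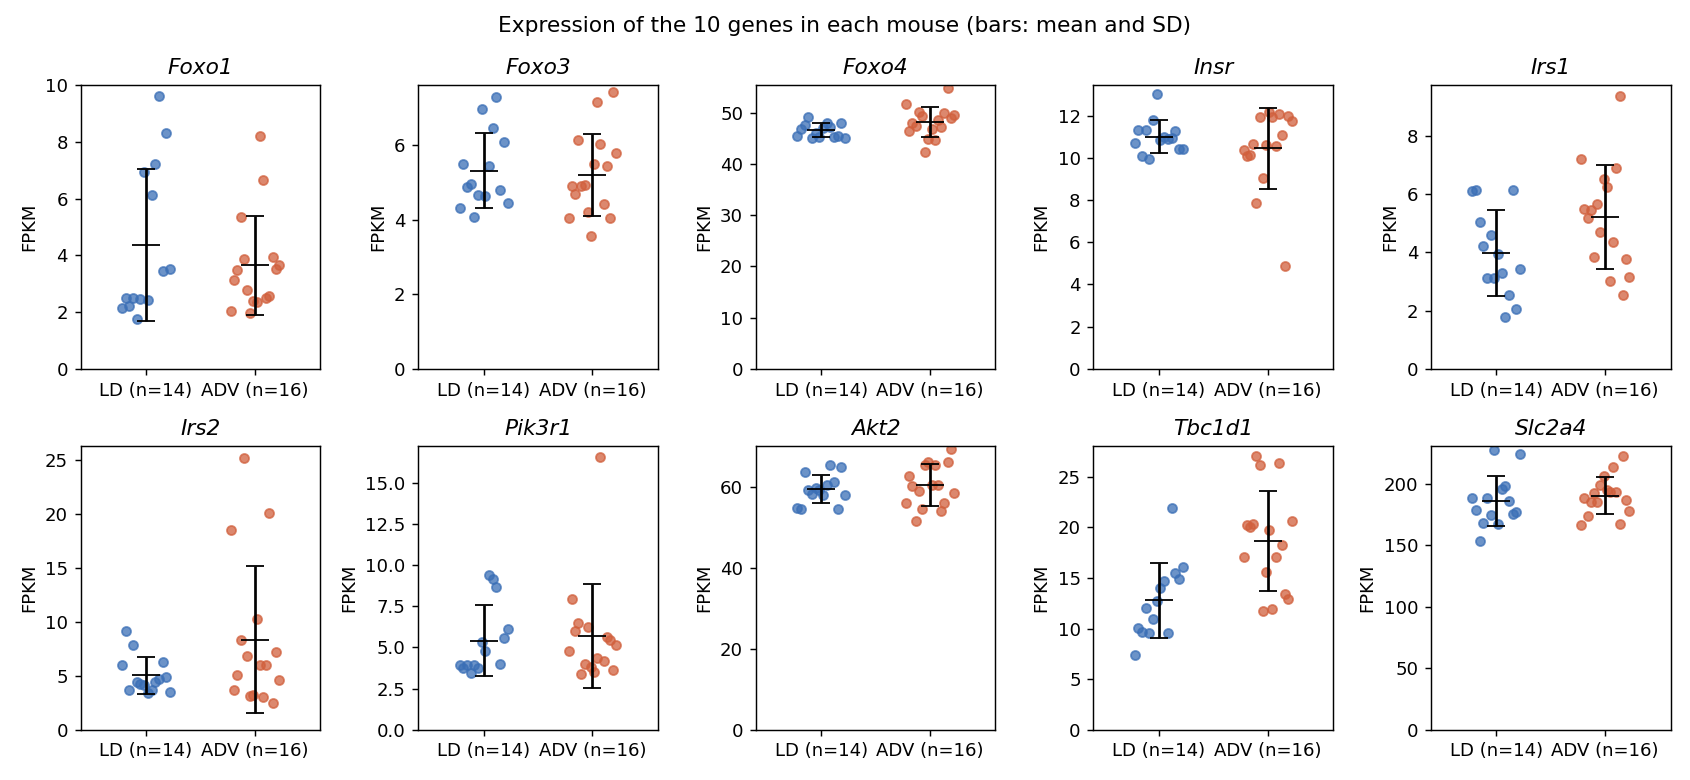
FPKM (vertical axis, from 0) of each of the 10 genes in each mouse, with LD in blue and ADV in orange; bars are the mean and SD. Tbc1d1 is shifted upwards in ADV, Foxo1 in LD falls into a lower and an upper cluster of mice, and 3 ADV mice stand high for Irs2 and 1 for Pik3r1.

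Tbc1d1 (chr5:64317163-64508829, GRCm39, plus strand, 21 exons in GENCODE vM39) encodes the Rab GTPase-activating protein that holds Glut4 vesicles inside the fiber until Akt2 or AMPK phosphorylates it, and is the main such protein of fast glycolytic fibers. Its level ranged from 7.41 to 21.9 FPKM with a median of 12.4 in LD, and from 11.7 to 27.1 FPKM with a median of 19.0 in ADV. The groups overlapped, but 14 of 16 ADV mice lay above the LD median and 3 of 16, mice 26, 32 and 25, above the highest LD mouse, number 33. The means were 12.8 FPKM ± 3.74 (SD, n = 14) and 18.6 FPKM ± 4.94 (SD, n = 16). The log2 fold change stayed between 0.48 and 0.62 when each mouse was left out in turn, and the call held in 30 of 30 such fits. It was lost in the 28 libraries whose label numbers occur in both groups (log2 fold change 0.47, edgeR FDR = 0.0559). Endothelial markers Pecam1 and Emcn were also higher in ADV (log2 fold change 0.16 and 0.27, 2 of 6 markers) and the fibroblast marker Pdgfra lower (-0.24, 1 of 6). Pecam1 was lost without ADV mice 25 and 34 (edgeR FDR = 0.0576) and with the GC content trend removed (FDR = 0.0604), whereas Emcn and Pdgfra passed in both. Schwann cell and adipocyte markers had larger median log2 fold changes, 0.45 and 0.65, of which 0 of 5 and 0 of 6 passed with edgeR and 4 and 3 had an unadjusted p under 0.05. The part of these cells in the result was not tested. The call was lost once the Dbp/Bmal1 ratio, described below, was added to the model: the estimate was then 0.65 ± 0.20 (SE) with an edgeR FDR of 0.180, and no gene (0 of 12030) passed in that fit, while 1664 genes had an unadjusted p under 0.05. The clock ratio and group cannot be fully told apart here.

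The substrates Irs1 and Irs2 link the receptor to PI 3-kinase. Irs2 ranged from 3.43 to 9.15 FPKM in LD (median 4.41) and from 2.51 to 25.1 FPKM in ADV (median 5.99). The 3 highest mice were all ADV mice, numbers 25, 33 and 21, at 25.1, 20.1 and 18.5 FPKM, whereas 4 ADV mice lay below the lowest LD mouse. Mouse 25, the highest, and mouse 34, the lowest at 2.51 FPKM, are the 2 libraries with low readings of long transcripts. The log2 fold change was 0.72 ± 0.30 (SE) and did not pass (edgeR FDR = 0.1002). With 1 mouse left out it lay between 0.50 (without ADV mouse 25) and 0.82 (without LD mouse 22). Over 14 alternatives, 1 of them without ADV mice 25 and 34, it ran from 0.25 to 0.78 and did not pass in any. Irs1 ranged from 1.77 to 6.15 FPKM in LD (median 3.70) and from 2.54 to 9.37 FPKM in ADV (median 5.32). Here 13 of 16 ADV mice lay above the LD median and 5 above the LD maximum, and the log2 fold change of 0.38 ± 0.18 (SE) did not pass either (edgeR FDR = 0.150).

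Irs2 was also the member whose spread differed most between groups in size. Its mean absolute deviation from the group median, on the log2 scale, was 0.34 in LD and 0.82 in ADV (difference 0.48 ± 0.19 (SE), unadjusted p = 0.0159). This did not pass over all genes (limma FDR = 0.801), and 0.00831% of all genes tested did; of the members 0 of 10 did, and 1 had an unadjusted p under 0.05.

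The receptor Insr, by contrast, was even between LD mice. It ranged from 9.92 to 13.05 FPKM in LD (median 10.9) and from 4.90 to 12.2 FPKM in ADV (median 10.6). The groups overlapped except for 3 ADV mice below the lowest LD mouse, and the lowest of these were mouse 34 and then mouse 25, the 2 libraries with low readings of long transcripts. The log2 fold change was -0.09 ± 0.08 (SE; edgeR FDR = 0.467) and -0.04 without ADV mouse 34.

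Pik3r1, the p85 subunit that both carries and restrains the catalytic subunit of PI 3-kinase, ranged from 3.43 to 9.41 FPKM in LD (median 4.41) and from 3.39 to 16.6 FPKM in ADV (median 4.97). ADV mouse 31 alone stood above the LD range. The log2 fold change was 0.05 ± 0.20 (SE; edgeR FDR = 0.885), and it changed sign, to -0.14, without that mouse. Akt2, the Akt form that serves glucose uptake, ranged from 54.5 to 65.3 FPKM in LD and from 51.6 to 69.2 FPKM in ADV, with a log2 fold change of 0.01 ± 0.04 (SE; edgeR FDR = 0.935). Slc2a4 ranged from 154 to 228 FPKM in LD and from 167 to 223 FPKM in ADV, with every ADV mouse inside the LD range and a log2 fold change of 0.02 ± 0.05 (SE; edgeR FDR = 0.844). For Akt2, 5 of 16 ADV mice lay above the LD range and 3 below it, and for both genes the sign of these small differences depended on the processing.

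Of the FoxO factors, Foxo1 ranged from 1.75 to 9.61 FPKM in LD (median 2.98) and from 1.98 to 8.22 FPKM in ADV (median 3.31). The LD mice formed separate clusters, 9 mice between 1.75 and 3.54 FPKM and 5 mice between 6.15 and 9.61 FPKM, whereas 13 of the 16 ADV mice lay below 4 FPKM. The log2 fold change was -0.28 ± 0.26 (SE; edgeR FDR = 0.481), and it was -0.13 without LD mouse 33 and -0.05 with the clock ratio as covariate. Foxo3 ranged from 4.07 to 7.30 FPKM in LD and from 3.57 to 7.43 FPKM in ADV, with a median of 4.93 FPKM in each group and a log2 fold change of -0.05 ± 0.10 (SE; edgeR FDR = 0.784). Foxo4 was the steadiest member, from 45.1 to 49.2 FPKM in LD and from 42.4 to 54.8 FPKM in ADV, with a coefficient of variation of 2.88% and 6.15%. Above its LD range lay 6 of 16 ADV mice and below it 3, and its log2 fold change of 0.03 ± 0.04 (SE) did not pass (edgeR FDR = 0.542).

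**Figure D2:**
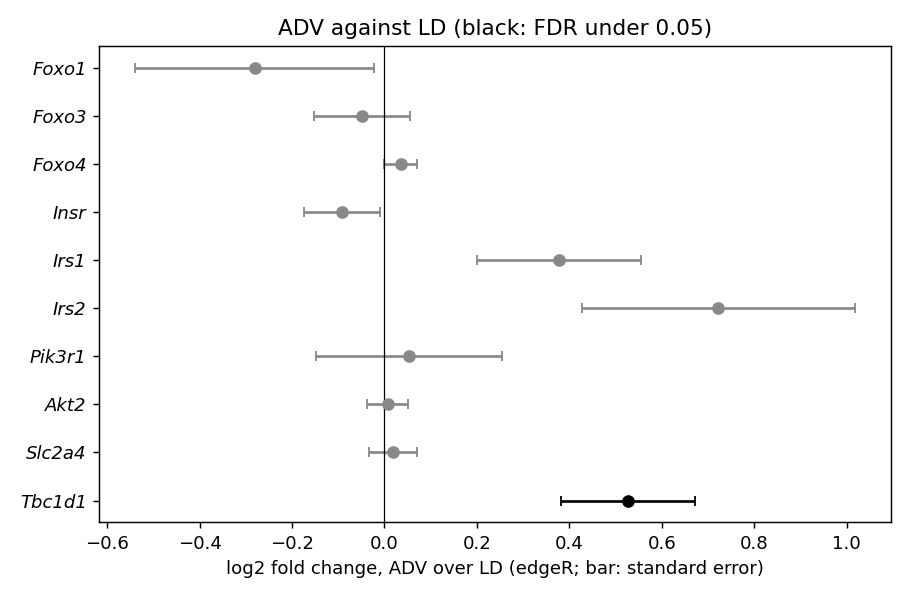
Log2 fold change of ADV over LD for the 10 genes (horizontal axis), with the standard error from edgeR as bars. Tbc1d1, in black, is the only member with an FDR under 0.05 (log2 fold change 0.53), and Irs2 (0.72) has a larger estimate with a wider error.

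The second question was whether the members followed Trim63, the FoxO target, from mouse to mouse within a group. Trim63 itself ranged from 107 to 463 FPKM in LD (median 153) and from 95.9 to 657 FPKM in ADV (median 216), and did not differ beyond this spread (log2 fold change 0.28 ± 0.27 (SE), edgeR FDR = 0.517). Within LD, the slope on Trim63 passed in 3 members, Foxo1 and Foxo3 upwards and Irs1 downwards, where 4.05% of all genes passed (2.24% upwards and 1.8% downwards). Within ADV it passed in 2 members, Foxo1 and Foxo3, where 1.39% of all genes passed (0.781% upwards and 0.607% downwards). A slope is the log2 change of the gene per doubling of Trim63, from 1 edgeR fit with separate slopes in each group. The fit estimates the variability of each gene from both groups together. Outlying mice of 1 group can thus also change the SE and FDR of the slope in the other.

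Foxo3 (chr10:42057837-42152748, GRCm39, minus strand) had a slope of 0.37 ± 0.06 (SE) in LD (edgeR FDR = 0.000509) and of 0.32 ± 0.05 (SE) in ADV (edgeR FDR = 0.000292). In LD, Pearson's r was 0.905 (permutation p = 5e-05) and Spearman's rho 0.793 (permutation p = 0.00114, n = 14), and r was 0.864 without the 2 mice farthest from the Trim63 median, mice 33 and 35. In ADV, r was 0.767 (permutation p = 0.00052) and rho 0.635 (permutation p = 0.0101, n = 16), and r was 0.523 without mice 30 and 35. Thus Foxo3 was high in the mice with high Trim63 in each group, and the slopes differed by only -0.05 ± 0.08 (SE). In LD the 5 mice with the highest Trim63 had Foxo3 between 5.44 and 7.30 FPKM, and the other 9 between 4.07 and 5.49 FPKM. Of these 5, mice 29, 31 and 32 remained in the r of 0.864. Whether Foxo3 rose with Trim63 among the other 9 mice was not tested.

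Foxo1 (chr3:52175757-52260642, GRCm39, plus strand) had a slope of 1.10 ± 0.15 (SE) in LD (edgeR FDR = 6e-05). The 5 mice of its upper cluster were also the 5 LD mice with the highest Trim63, at 231 to 463 FPKM, against 107 to 187 FPKM in the other 9. Since the LD mice fall into separate clusters by Foxo1, no correlation over all 14 is given, and a correlation among mice picked by their Foxo1 level would be no test. The LD slope is likewise taken over both clusters, so it does not show a graded rise within either. In ADV, where no such gap was present, the slope was 0.56 ± 0.13 (SE; edgeR FDR = 0.0201), with r = 0.656 (permutation p = 0.00635) and rho = 0.715 (permutation p = 0.00251, n = 16), and r was 0.604 without mice 30 and 35. The ADV call was lost without mouse 30 (slope 0.42, edgeR FDR = 0.374) or without mouse 27 (slope 0.53, edgeR FDR = 0.0613). The slopes differed by -0.54 ± 0.20 (SE) between ADV and LD, which did not pass over all genes (unadjusted p = 0.0136, edgeR FDR = 0.821).

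Irs1 (chr1:82210822-82269137, GRCm39, minus strand) ran the other way. Its slope on Trim63 was -0.61 ± 0.15 (SE) in LD (edgeR FDR = 0.0181) and -0.37 ± 0.13 (SE) in ADV, which did not pass (edgeR FDR = 0.170). In LD, r was -0.773 (permutation p = 0.00119) and rho -0.745 (permutation p = 0.00319, n = 14), and r was -0.700 without mice 33 and 35. In ADV, r was -0.596 (permutation p = 0.0148) and rho -0.665 (permutation p = 0.00637, n = 16), and r was -0.478 without mice 30 and 35. ADV mouse 34, whose long transcripts read low, had the lowest Irs1 in ADV (2.54 FPKM), with Trim63 at 263 FPKM. Over 6 alternatives, 1 of them without ADV mice 25 and 34, the ADV slope ran from -0.40 to -0.34 and did not pass in any. The 3 LD mice with the lowest Irs1, numbers 32, 35 and 33, were among the 5 with the highest Trim63 and Foxo1. These 5 had Irs1 between 1.77 and 3.28 FPKM, and the other 9 LD mice between 3.11 and 6.15 FPKM. Of the 5, mice 29, 31 and 32 remained in the LD r of -0.700. Whether Irs1 fell with Trim63 among the other 9 mice was not tested. The LD call was lost without LD mouse 21 (slope -0.58, edgeR FDR = 0.0547), without LD mouse 33 (slope -0.70, edgeR FDR = 0.0724) and with the Dbp/Bmal1 ratio as a further covariate (slope -0.48, edgeR FDR = 0.143).

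**Figure D3:**
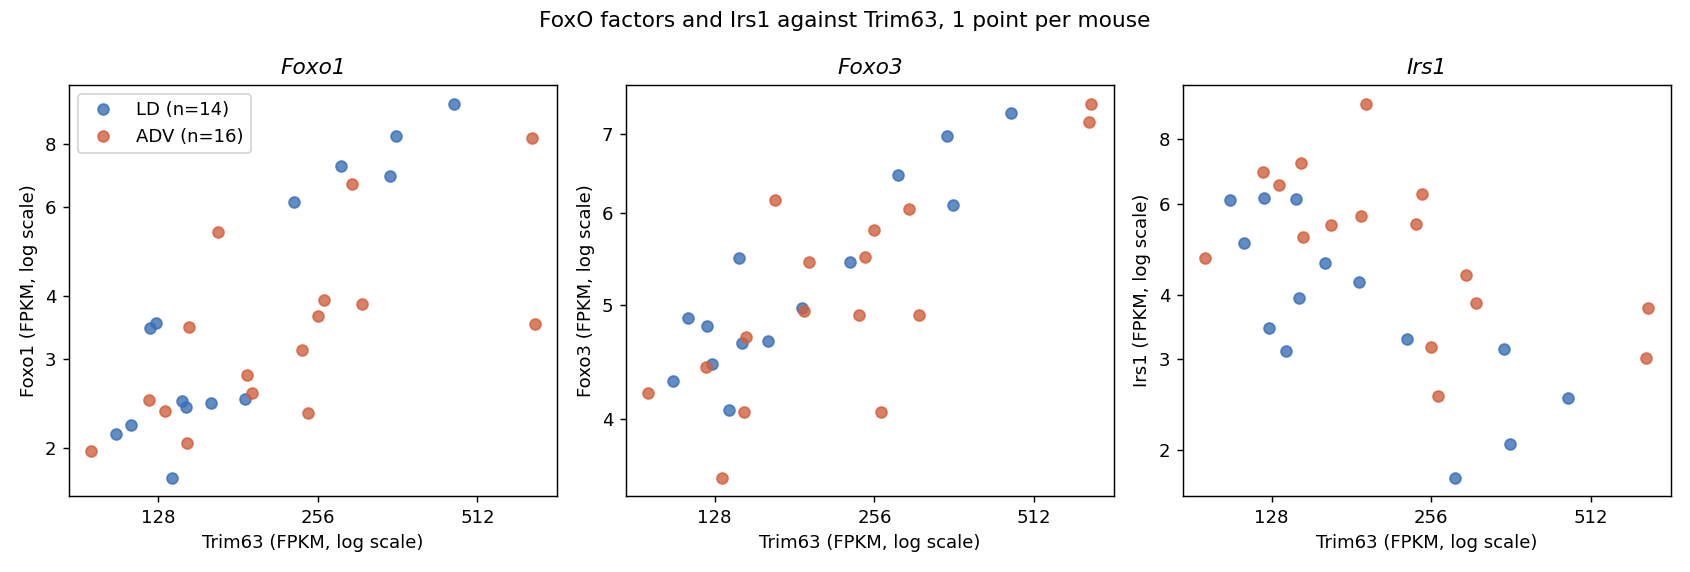
Foxo1, Foxo3 and Irs1 (FPKM, log scale) against Trim63 (FPKM, log scale), 1 point per mouse, LD in blue and ADV in orange. Foxo3 is higher at high Trim63 in both groups (r = 0.905 and 0.767), and Irs1 is lower (r = -0.773 and -0.596). In LD the 5 mice with high Foxo1 are those with the highest Trim63.

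The other members showed no slope on Trim63 that passed. Pik3r1 had the largest estimate among them in LD, 0.54 ± 0.20 (SE; edgeR FDR = 0.139), with r = 0.658 (permutation p = 0.0107) and rho = 0.455 (permutation p = 0.104, n = 14). It passed in 1 of the 30 fits that left out a mouse, the one without ADV mouse 31 (edgeR FDR = 0.0235). There the LD slope of Pik3r1 stayed at 0.54 while its SE fell to 0.14. Akt2 had a slope of 0.10 ± 0.04 (SE) in LD and of 0.10 ± 0.03 (SE) in ADV, and neither passed (edgeR FDR = 0.181 and 0.163). Tbc1d1, the gene that differed between the groups, had a slope of 0.33 ± 0.14 (SE) in LD and of -0.12 ± 0.14 (SE) in ADV, neither of which passed (edgeR FDR = 0.213 and 0.820). The difference of slopes between groups passed in 0 of 12029 genes (edgeR), with 667 genes and 2 members, Foxo1 and Tbc1d1, at an unadjusted p under 0.05.

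The third question was whether the members followed the clock. Dbp is driven by the clock's activators and Bmal1 is expressed in antiphase to it, so the Dbp/Bmal1 ratio was used as a reading of clock phase. The ratio was not checked against the hours at which tissue was taken. Dbp itself ran from 3.36 to 56.9 FPKM in LD and from 3.98 to 17.8 FPKM in ADV (log2 fold change -1.66). The log2 ratio ran from -2.10 to 3.28 in LD (median 1.28) and from -2.41 to 1.38 in ADV (median -1.03), so that most ADV mice lay below most LD mice. Of the members 0 of 10 had a slope on the ratio that passed in either group, where 0.316% of all genes passed in LD and 0.0249% in ADV. At an unadjusted p under 0.05 there were 2 members in LD (Irs1 and Pik3r1) among 1517 genes, and 2 members in ADV (Irs2 and Slc2a4) among 807 genes. Altogether 40 relations were computed, from 10 members, 2 measures and 2 groups.

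Irs2 was the member that lay closest to the clock ratio in LD by rank. Its r was -0.719 (permutation p = 0.00379) and rho -0.793 (permutation p = 0.00100, n = 14), and r was -0.736 without mice 30 and 34. The edgeR slope of -0.23 ± 0.15 (SE) did not pass (FDR = 0.573). The error of this slope rests on the mice of both groups, as for Trim63, whereas r and rho use the LD mice alone. The LD mice with the highest ratios had Irs2 below 5 FPKM. In ADV the estimate had the opposite sign, with a slope of 0.50 ± 0.21 (SE; edgeR FDR = 0.662) and r = 0.453 (permutation p = 0.0778, n = 16), and r was 0.131 without mice 21 and 31. Mouse 21 has both the highest ratio and one of the 3 high Irs2 levels. Irs1 had r = -0.604 (permutation p = 0.0219) and rho = -0.648 (permutation p = 0.0145, n = 14) in LD and r = 0.268 (permutation p = 0.318, n = 16) in ADV. The E-box in the start regions of both genes, printed above, is a description beside these values.

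Pik3r1 had a positive slope on the ratio in LD that did not pass (slope 0.24 ± 0.10 (SE), edgeR FDR = 0.264; r = 0.603, permutation p = 0.0225; rho = 0.644, permutation p = 0.0155; n = 14), and r was 0.792 without mice 30 and 34. In ADV its slope was -0.26 ± 0.13 (SE; edgeR FDR = 0.745), and it changed sign, to 0.07, without mouse 31, the mouse with the lowest ratio and the highest Pik3r1. Slc2a4 had r = -0.646 (permutation p = 0.00678) and rho = -0.606 (permutation p = 0.0150, n = 16) in ADV, with a slope of -0.09 ± 0.04 (SE; edgeR FDR = 0.662), and r was -0.404 without mice 21 and 31. In LD its slope was 0.04 ± 0.02 (SE; edgeR FDR = 0.495). Differences of slopes between the groups passed in 0 of 12028 genes (edgeR), with 1251 genes at an unadjusted p under 0.05. Of the members 5 were among these: Pik3r1 (-0.49 ± 0.16 (SE), FDR = 0.226), Slc2a4 (-0.14 ± 0.05, FDR = 0.240), Irs2 (0.74 ± 0.26, FDR = 0.255), Irs1 (0.37 ± 0.15, FDR = 0.339) and Akt2 (-0.09 ± 0.04, FDR = 0.430). Trim63 and the ratio were themselves weakly related, with r = 0.366 in LD (n = 14) and -0.362 in ADV (n = 16), given as a description.

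**Figure D4:**
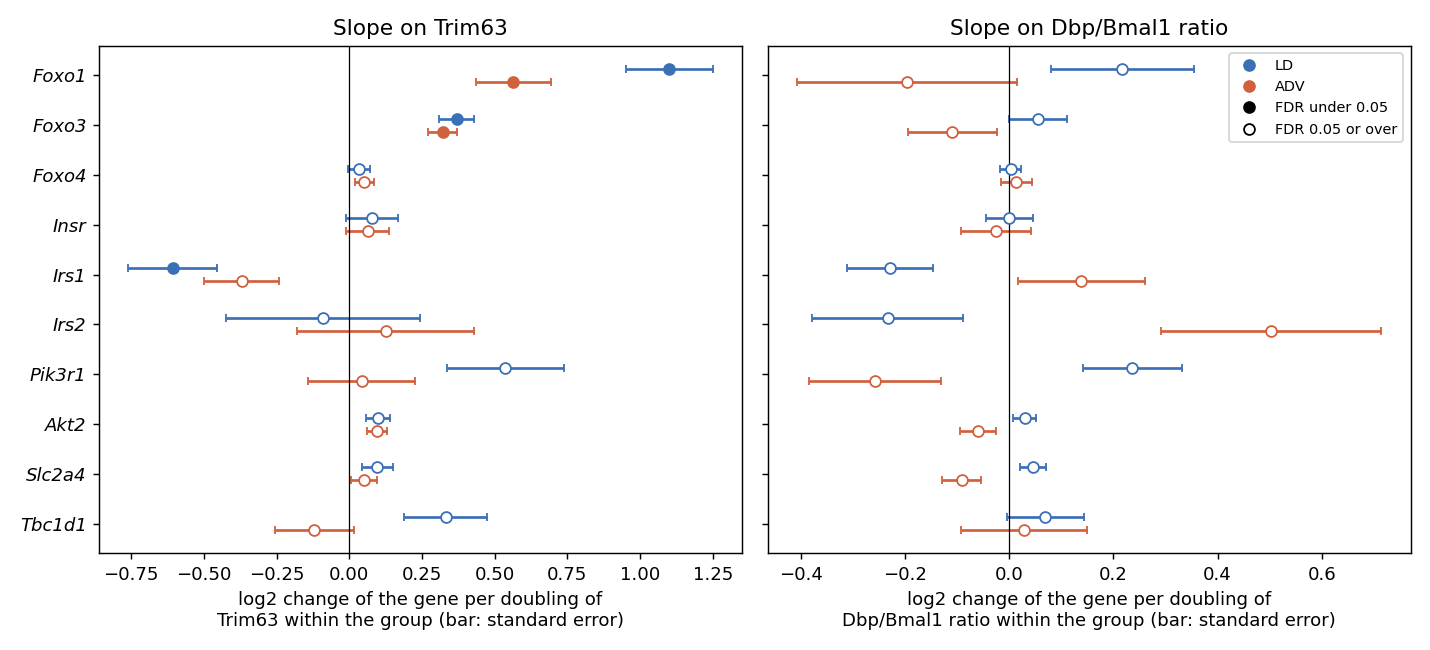
Slope of each member on Trim63 (left) and on the Dbp/Bmal1 ratio (right), as log2 change per doubling within LD (blue) and ADV (orange), with standard errors; filled points have an edgeR FDR under 0.05. Filled points are Foxo1 and Foxo3 in both groups and Irs1 in LD on Trim63, and no point is filled on the ratio.

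**Figure D5:**
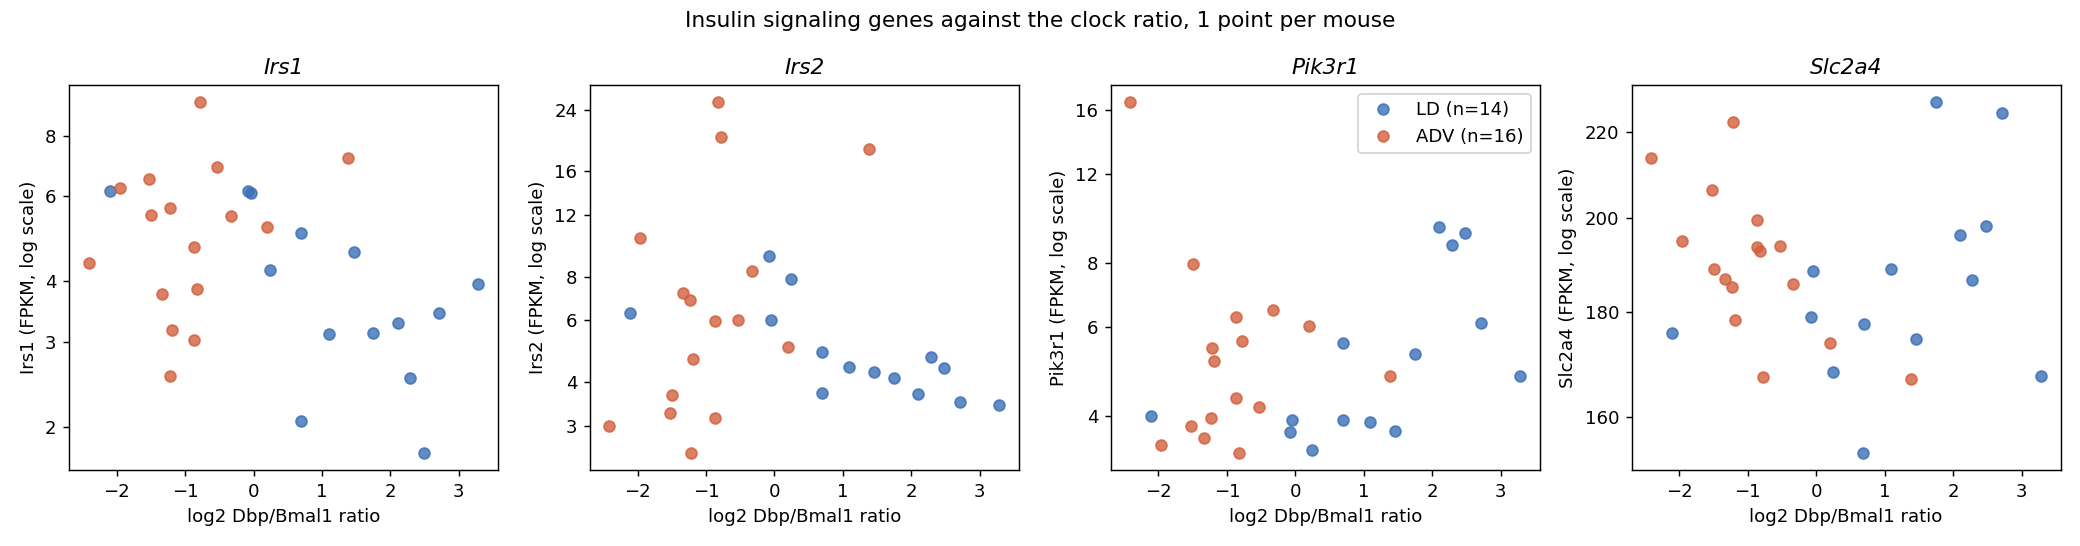
Irs1, Irs2, Pik3r1 and Slc2a4 (FPKM, log scale) against the log2 Dbp/Bmal1 ratio, 1 point per mouse, LD in blue and ADV in orange. Irs2 is lower at high ratios in LD (rho = -0.793), and ADV mouse 31, at the lowest ratio of -2.41, has the highest Pik3r1 (16.6 FPKM).

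Among themselves, over the 30 mice and after subtraction of the group means, Foxo1 and Foxo3 moved together (Spearman's rho 0.71), Irs1 ran against Foxo1 (-0.67) and Akt2 (-0.57), and Irs2 ran against Pik3r1 (-0.49). Foxo4 had its strongest relation to another member, Slc2a4, at only -0.42. These values describe the same 30 libraries, which share depth and composition. The genes with the most similar pattern were Ppp1r3c (rho 0.87), a glycogen-targeting subunit of protein phosphatase 1, and Glul (0.87), glutamine synthetase, for Foxo1, and Sesn1 (0.89) and Il6ra (0.86), a sestrin and the interleukin-6 receptor, for Foxo3. For the substrates they were Lats2 (0.92) and Tram1 (0.88) for Irs1 and Kdsr (0.86) and Arid5b (0.81) for Irs2. For the receptor they were Tead1 (0.85) and Osbpl8 (0.83), for Pik3r1 Fmo2 (0.84) and Net1 (0.81), for Akt2 Rpp25l (0.79) and Ahcy (0.79), for Slc2a4 Mcrip2 (0.86) and Pgap4 (0.83), for Foxo4 Eps8l1 (0.68) and Eepd1 (0.67), and for Tbc1d1 Mylk4 (0.71) and Rev1 (0.62).

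The rest of the pathway was read from lists of genes in the same fit. Over 6 lists, 115 genes were tested, of which 4 were higher and 13 lower in ADV. This is 14.8% of them, against 10.8% of all genes tested (5.61% higher and 5.2% lower), with a median log2 fold change of -0.05 against 0.00 over all genes tested. Of 25 tested genes of Glut4 vesicle traffic, 0 rose and 4 fell (16.0%): Stxbp3, the syntaxin-binding protein Munc18c (log2 fold change -0.30 ± 0.05 (SE), edgeR FDR = 0.00109), Ralgapa1 (-0.20), Snap23 (-0.16) and Vamp3 (-0.12). Without ADV mice 25 and 34, Ralgapa1 (edgeR FDR = 0.0728) and Snap23 (FDR = 0.1001) no longer passed. With the GC content trend removed, Ralgapa1 (FDR = 0.0803), Snap23 (FDR = 0.201) and Vamp3 (FDR = 0.314) did not pass. For Stxbp3, 14 of 16 ADV mice lay below the lowest LD mouse, the clearest separation among the genes of these lists named here. Rab10, the most abundant gene of that list, had a log2 fold change of -0.14 and did not pass (edgeR FDR = 0.0512). Of 11 tested glucose transporters and regulators of the Glut4 gene, 2 rose and 1 fell. Slc2a1, the basal glucose transporter Glut1 (0.40 ± 0.10 (SE), edgeR FDR = 0.0121), and Hdac5 (0.22), a class IIa histone deacetylase, rose. Thra (-0.19), a thyroid hormone receptor, fell. Thra was lost without ADV mice 25 and 34 (edgeR FDR = 0.0501) and Hdac5 with GC removed (FDR = 0.148). Mef2c, the most abundant gene of that list, did not pass (-0.10, edgeR FDR = 0.401).

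Of 25 tested insulin signaling kinases and adaptors, Akt1 rose (0.19) and Igf1r (-0.29), Sos1 (-0.20) and Pik3cd (-0.34) fell, while Gys1, glycogen synthase and the most abundant of them, did not pass (0.09, edgeR FDR = 0.242). Igf1r was lost without ADV mice 25 and 34 (edgeR FDR = 0.0995), and with GC removed Sos1 (FDR = 0.118) and Akt1, whose log2 fold change was then 0.06 (FDR = 0.508), were lost. Of 16 tested inhibitors of insulin signaling, the pseudokinase Trib1 rose (0.66 ± 0.20 (SE), edgeR FDR = 0.0351) and Prkcq, protein kinase C theta, fell (-0.20), and the most abundant, Inppl1, did not pass (0.12, edgeR FDR = 0.0845). Trib1 was lost without ADV mice 25 and 34 (edgeR FDR = 0.0641) and with GC removed (FDR = 0.0755). Of 12 tested partners of FoxO, Prkaa2, a catalytic subunit of AMPK (-0.27), and Usp7, a deubiquitinase (-0.12), fell, and Sgk1, the most abundant, did not pass (-0.26, edgeR FDR = 0.211). Usp7 was lost without ADV mice 25 and 34 (edgeR FDR = 0.0649) and with GC removed (FDR = 0.194). Of 26 tested FoxO target genes 0 rose and 2 fell, the cell cycle inhibitor Cdkn1b (-0.18) and the autophagy kinase Ulk2 (-0.13). This is 7.69% of them, against 10.8% of all genes tested, with a median log2 fold change of -0.03. Without ADV mice 25 and 34 both were lost (edgeR FDR = 0.0750 and 0.0656), as with GC removed (FDR = 0.195 and 0.0536). Pdk4, a kinase that inhibits pyruvate dehydrogenase and the most abundant of them, ranged widely and did not pass (0.22 ± 0.37 (SE), edgeR FDR = 0.730).

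Slopes on Trim63 within groups were read for the same list of FoxO targets. The list holds Trim63 itself and was chosen with earlier results of these data known, so its counts are a description. Of the 25 tested targets other than Trim63, 7 had a positive slope on Trim63 that passed in LD and 5 in ADV, and 0 had a negative one, by edgeR, against 2.24% and 0.781% of all genes with a positive slope that passed. Pdk4 (slope 1.34 in LD and 1.04 in ADV), Klf15, a transcription factor of fasting metabolism (0.51 and 0.58), and the sestrin Sesn1 (0.38 and 0.48) passed in both groups. Fbxo32, the ubiquitin ligase atrogin-1, passed in ADV (0.81, edgeR FDR = 7.57e-05) and not in LD (0.36, edgeR FDR = 0.129), and the difference of slopes between the groups passed for no gene, as above. Fbxo21, Fbxo31, Eif4ebp1 and Txnip passed in LD alone and Gabarapl1 in ADV alone, and these 5 were named after their values were seen, as were Klf15 and Fbxo32.

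In the other lists the slopes on Trim63 that passed in LD were 1 upwards and 1 downwards of 12 FoxO partners. Of 25 kinases and adaptors 1 passed downwards, and 1 of 16 inhibitors and 1 of 25 vesicle traffic genes passed upwards. Of 11 transporters and Glut4 gene regulators 0 passed. In ADV 2 of the 25 kinases and adaptors passed downwards, and 0 genes in each other list. Over all genes 4.05% passed in LD and 1.39% in ADV. The LD slopes were positive for Sgk1 (0.44, edgeR FDR = 0.0307), a kinase that phosphorylates FoxO, for Ptpn1 (0.35, edgeR FDR = 0.0186), the phosphatase that acts on the insulin receptor, and for Myo5a (0.42, edgeR FDR = 0.0472), a motor of vesicles. They were negative for Foxo6 (-0.81, edgeR FDR = 0.0208) and for Pik3r3 (-0.39, edgeR FDR = 0.00561), a regulatory subunit of PI 3-kinase. In ADV the slopes were negative for Pik3r3 (-0.25, edgeR FDR = 0.0418) and for the adaptor Sh2b2 (-0.55, edgeR FDR = 0.00570). In LD the slope of Foxo6 thus had the opposite sign to those of Foxo1 and Foxo3. In ADV the Foxo6 slope was -0.57 and did not pass (edgeR FDR = 0.0990). All of these genes except Sgk1 were named after their values were seen.

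Markers of other cells were counted for the same tissue. Adipocyte markers (0 of 6 passed, with edgeR; summed level 29.5 to 176 FPKM in LD and 19.8 to 301 FPKM in ADV), leukocyte markers (0 of 4 tested; 9.81 to 22.1 and 8.92 to 17.8 FPKM) and Schwann cell markers (0 of 5 tested; 24.5 to 46.8 and 26.3 to 81.7 FPKM) did not pass between groups, and 3, 1 and 4 of them had an unadjusted p under 0.05. Their highest members were Cfd (log2 fold change 0.04), Csf1r (-0.25) and Pmp22 (0.22). Summed endothelial markers ran from 52.4 to 73.1 FPKM in LD and from 62.7 to 79.6 FPKM in ADV, and summed fibroblast markers, led by Dcn (-0.11), from 278 to 378 and from 241 to 401 FPKM. Of 6 endothelial markers, 1 had a slope on Trim63 in LD that passed, the receptor Kdr (-0.49, edgeR FDR = 0.0126), in the same direction as Irs1. The LD slopes of Cdh5 (-0.09), Tek (-0.13) and Emcn (-0.11) were also negative, and those of Pecam1 (0.04) and Cldn5 (0.20) positive. In ADV the Kdr slope was -0.14 and did not pass (edgeR FDR = 0.595). The part of Kdr in the Irs1 slope was not tested.

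Some reads of the members may come from genes on the other strand, since the sources used here do not state whether counting used the strand. Exons of genes on the other strand cover 7.78% of the exon bases of Foxo1 (Gm20402), 4.97% and 3.03% of Irs2 (9530052E02Rik and Gm63916), 3.31% of Irs1 (Gm70174), 2.91% of Slc2a4 (Gm72743) and 1.35% of Insr (Gm64081). For Foxo3, Foxo4, Pik3r1, Akt2 and Tbc1d1 there was no such overlap in GENCODE vM39.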

How the data were processed

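Poly(A)-enriched stranded RNA of the gastrocnemius, collected with the plantaris, was sequenced with 101-bp paired-end reads, 1 library per mouse. After trimming by Trimmomatic, the authors aligned the reads to GRCm39 with STAR 2.7.10a, removed alignments with a mapping quality under 10 and counted exon reads on UCSC known canonical transcripts with HOMER 4.11 (versions from the submitters' processing notes). The deposited raw counts are estimated counts: each mate counts as 0.5 read, so 14.8% of values were not whole, and they were rounded here. The FPKM values the authors deposited for the same 57186 rows equal the count divided by length and by library total.

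One row per symbol was kept (the longest with a mean over 20 reads), and a gene was tested if it had over 20 reads on average and an average FPKM above 0.5. Samples were grouped by their labels. The test on counts was edgeR's quasi-likelihood F test (version 4.0.16, R 4.3.3) after TMM normalization, and p-values were adjusted by Benjamini and Hochberg's method across the 12030 genes. Spread was compared with limma 3.58.1 on absolute deviations from the group median of log2 CPM (prior count 2). Correlations used log2(FPKM + 0.1) and 100000 two-sided permutations (scipy 1.17.1). Tests ran on simulated data first. DESeq2 1.42.0, the study's tool, and other normalizations, filters, covariates and left-out mice were alternatives, and corrections for transcript length and the removal of ADV mice 25 and 34 were chosen after seeing the data. For the GC alternative, 99.95% of the genes tested had a GC value.

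The members and lists were chosen with earlier results of these data known. Named were the members, Trim63, Dbp and Bmal1, of each list up to 4 genes that passed with the largest change and the most abundant gene, and for each member the 2 genes most like it by Spearman's rho. Kdr was named after its values were seen. Promoter sequences are from RefSeq.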

Additional observations from a re-analysis of the deposited data

How the results depend on the processing

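The direction of the Tbc1d1 difference held in 14 of 14 alternatives (log2 fold change 0.47 to 0.65, FDR 0.00646 to 0.180) and the call in 11. Genes that passed with the fold change limit numbered 252, and 124 with limma on log2(FPKM + 1), 167 with the GC content trend removed, 0 with the clock ratio as covariate and 190 to 302 with 1 mouse left out. Members called were 1, and 0 with the clock ratio as covariate (1 to 1 with 1 mouse left out). The labels do not say whether numbers shared between the groups pair the mice, and a pairing was not tested. The correlation of deviations between mice of the same number was -0.26 to 0.43 over 14 numbers. It was over 0.1 for 6 numbers, and 3 mice of 14 were most like the mouse with their own number. The fit with the number as a replicate block gave 137 genes, 0 members (Tbc1d1 0.48, FDR 0.0719) and 6 list genes, and the same 28 libraries without the block 151 genes, 0 members (Tbc1d1 0.47, FDR 0.0559) and 7 list genes. List genes called were 17, and 11 with limma on log2(FPKM + 0.1), 6 with no filter, 10 with GC removed, 10 without ADV mice 25 and 34, 0 with the clock ratio and 9 to 21 with 1 mouse left out (9 without LD mouse 28). Of the 17 genes themselves, 7 were called with GC removed, 9 without ADV mice 25 and 34, 11 with limma on log2(FPKM + 0.1), 6 with no filter and 6 with the block. Genes with an FDR under 0.05 alone numbered 1301, and 629 with no filter, 603 with GC removed, 745 without ADV mice 25 and 34, 494 with the block, 616 in the same 28 libraries and 0 with the clock ratio. Of these, 675 rose and 626 fell, against 775 and 466 with library size alone, 860 and 448 with limma on log2(FPKM + 0.1) and 858 and 449 on log2(FPKM + 1). Uncalled members changed sign: with GC removed Foxo4 -0.029, Akt2 -0.058 and Slc2a4 -0.053, with the length trend removed Foxo3 0.00785 and Slc2a4 -0.000701, without ADV mice 25 and 34 Akt2 -0.00479 and Slc2a4 -0.00501. With 1 mouse left out Akt2 ran from -0.00655 to 0.0241, Slc2a4 from -0.00313 to 0.0427, Foxo3 from -0.0894 to 0.000994, Pik3r1 from -0.142 to 0.134 and the Pik3r1 ADV slope on the ratio from -0.390 to 0.0699. Member slopes on Trim63 that passed numbered 5, and 4 to 6 with 1 mouse left out, and member slopes on the ratio and differences of slopes that passed numbered 0 in each alternative run. The cause of these changes was not tested. Low FPKM values such as those of Foxo1 rest on a mean of 846 reads, so counting error is small beside the spread between mice.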
